A study of Mus musculus with 8 samples.

Results

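The genes described here encode the machinery with which a nerve terminal docks, primes and fuses its transmitter vesicles, together with the relatives of that machinery that drive membrane fusion in every cell. They were chosen by symbol alone: all synaptotagmin (*Syt*), syntaxin (*Stx*), syntaxin-binding protein (*Stxbp*), VAMP, SNAP, synapsin (*Syn*), *Syp*, *Sv2*, *Rab3*, complexin (*Cplx*) and synaptogyrin (*Syngr*) genes in the expression tables. This gave 69 of the 24849 listed genes, of which 49 passed the filter on low values and entered the tests. Polyadenylated RNA had been sequenced from mouse embryonic stem cells (mESCs) of the MPI-II line (strain 129S2/SvPas), either wild type or *Pcgf5*-/-. Undifferentiated cells (day 0) had been kept on feeder cells with serum, LIF and the 2i inhibitors. Differentiating cells had spent 6 days in N2B27, a defined medium without serum that lets mESCs take a neural fate, and there were 2 biological replicates of each genotype at each day. PCGF5 is a subunit of a variant Polycomb repressive complex, and its gene had been disrupted by TALENs aimed at the second exon, after which single drug-resistant colonies were picked. How many *Pcgf5*-/- clones stand behind the samples is not given in the sources used here, so a difference between the genotypes and a difference between clones cannot be told apart.

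Vesicle fusion is driven by SNARE proteins. A vesicle SNARE (a VAMP) zips together with a syntaxin and a SNAP-25 family member on the target membrane, and the coil they form pulls the membranes into contact. Munc18 proteins such as those of *Stxbp2* and *Stxbp3* hold and guide the syntaxins, complexins clamp and then assist the assembled coil, and synaptotagmins, several of which bind calcium, time the fusion. RAB3 proteins, synapsins, SV2 proteins, synaptophysin and the synaptogyrins sit on the vesicle itself. The neuronal forms are late features of neural differentiation, whereas forms such as *Vamp3*, *Snap23* and *Stx4a* serve routine secretion in most cells.

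Expression was measured as FPKM, fragments per kilobase of transcript scaled for library size, so levels can be compared between genes. The knockout itself was visible in the targeted gene: wild type samples gave *Pcgf5* values of 5.18 and 3.63 FPKM and *Pcgf5*-/- samples 1.28 and 1.84 FPKM at day 0, followed by 9.16 and 5.06 against 0.669 and 0.457 FPKM at day 6. FPKM covers all exons of a gene and does not isolate the targeted exon. Read from the steps between low values, the deepest library had 1.30 times the depth of the shallowest, and FPKM values carry no count behind each value. Tests were made with limma on log2(FPKM + 1) in 1 fit of all 8 samples, with Benjamini-Hochberg adjustment over the 13214 tested genes and 0.05 as the threshold. Fold changes are therefore on the log2(FPKM + 1) scale, and for genes near or under 1 FPKM they understate the ratio. On this scale *Pcgf5* differed between the genotypes by -2.33 at day 6 (limma adjusted p = 0.00421). Its difference of -1.07 at day 0 did not pass the threshold (limma adjusted p = 0.105).

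The levels of the 49 tested members did not separate housekeeping from neuronal forms, whose ranges overlapped. *Vamp3*, the cellubrevin of recycling endosomes, was the most abundant in differentiated wild type cells with 53.0 and 60.9 FPKM. Next came a group of genes with closely spaced levels, among them *Stx5a* of the Golgi (25.5 and 27.1 FPKM), *Snap47* (23.6 and 24.5 FPKM), the synaptotagmin *Syt11* (23.9 and 22.5 FPKM) and the plasma membrane SNARE *Snap23* (21.4 and 23.1 FPKM). The most abundant of the 5 neuronal SNAREs was *Vamp2*, the vesicle SNARE of synapses, with 16.9 and 19.5 FPKM. *Snap25*, its neuronal partner on the plasma membrane, reached only 7.79 and 5.06 FPKM. The main calcium sensor of synapses, *Syt1*, stayed at 0.434 and 0.448 FPKM and so below the filter.

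**Figure D1:**
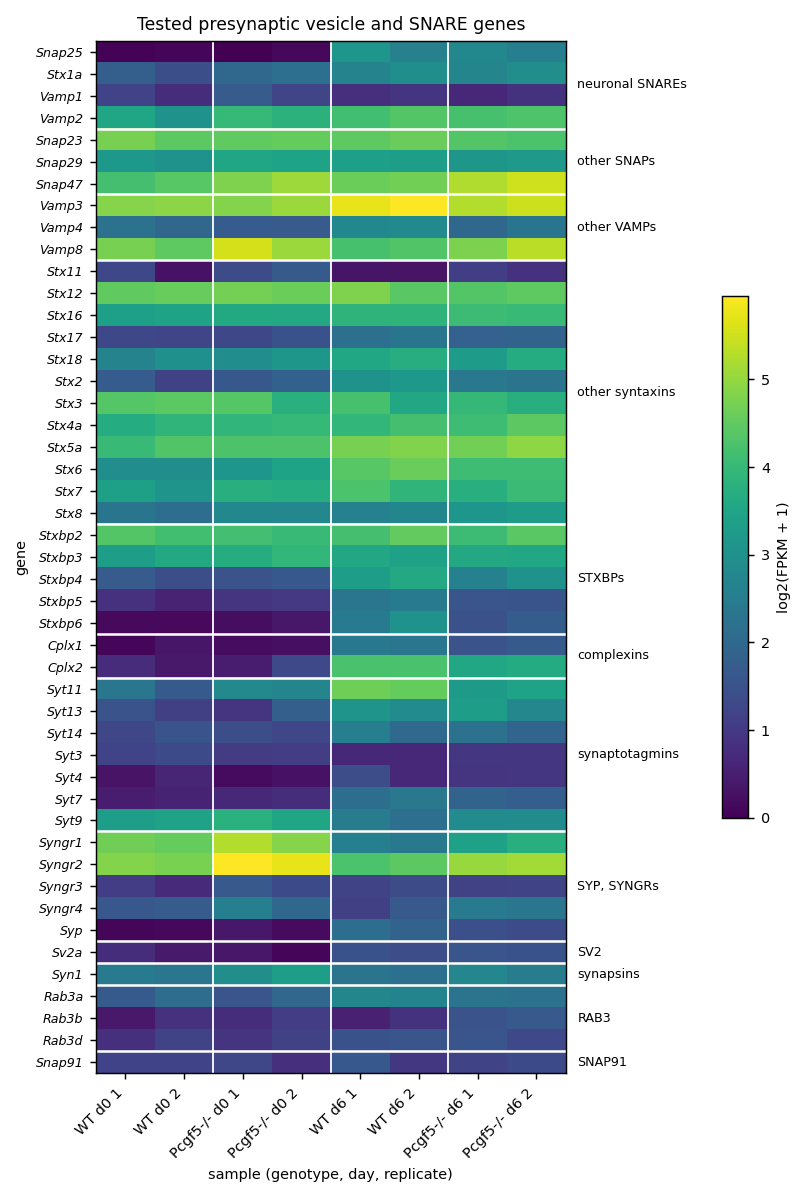
Level of 47 of the 49 tested presynaptic vesicle and SNARE genes (rows, grouped by role) in each of the 8 samples (columns, by genotype, day and replicate), coloured by log2(FPKM + 1). *Snap25*, *Stxbp6*, *Cplx1*, *Cplx2* and *Syp* are dark at day 0 and brighter at day 6 in both genotypes, *Syngr1* runs the other way, and *Vamp3* and *Syngr2* are bright throughout.

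During the 6 days in wild type cells, 26 of the 49 tested members rose and 4 fell, beside 34.2% of all tested genes that rose and 16.2% that fell. The median log2 change was 0.60 over the members and 0.22 over all tested genes, so each rise stands beside a general upward shift of the values. With quantile normalization, which removes that shift, the medians were 0.24 and 0.005 and 19 members rose. Without 1 sample at a time, 21 to 26 members rose. Of the 26, 9 passed the filter on low values through the samples of day 6 alone. The counts by role in the next paragraphs stand beside the same 34.2% and 16.2% of all tested genes.

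Among the neuronal SNAREs, 4 of 5 rose in wild type. *Snap25* went from 0.0345 and 0.0583 FPKM at day 0 to 7.79 and 5.06 FPKM at day 6 (log2 fold change 2.80, standard error 0.22, limma adjusted p = 4.1e-05). The syntaxin *Stx1a* (1.20) and the vesicle SNARE *Vamp2* (0.98) rose less on the same log2 scale. *Vamp1*, the second synaptobrevin, had 1.31 and 0.703 FPKM at day 0 and 0.785 and 0.861 at day 6, values that overlap, with a log2 difference of -0.12 (limma adjusted p = 0.682).

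Both tested complexins rose in wild type. *Cplx2* rose from 0.681 and 0.328 FPKM to 17.8 in both samples of day 6 (log2 fold change 3.65, standard error 0.28, limma adjusted p = 4.0e-05). *Cplx1* went from 0.0664 and 0.281 FPKM to 4.31 and 4.01 (log2 fold change 2.14). Day 0 and day 6 samples of both genes lay far apart, and the 2 replicates of day 6 were nearly equal.

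Of the 6 syntaxin-binding proteins, 4 rose, with a median log2 change of 1.72 over the 6. *Stxbp6*, or amisyn, which carries a VAMP-like coil and binds syntaxin without entering a vesicle, went from 0.113 and 0.109 FPKM to 4.46 and 7.23 (log2 fold change 2.59). *Stxbp5*, or tomosyn, a brake on SNARE assembly, rose by 1.68 and *Stxbp4*, or Synip, a partner of syntaxin 4, by 1.88, both on the log2(FPKM + 1) scale. The Munc18 genes of general secretion did not pass the test: *Stxbp2* had 19.6 and 16.9 FPKM at day 0 and 17.3 and 22.1 at day 6, and *Stxbp3* had a log2 difference of 0.02.

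The synaptotagmins were mixed, with 4 of the 7 tested higher and 2 lower at day 6 in wild type. *Syt11*, a synaptotagmin that does not bind calcium, rose from 4.07 and 2.24 FPKM to 23.9 and 22.5 (log2 fold change 2.58, standard error 0.22, limma adjusted p = 6.6e-05) and so became the most abundant member of its family. *Syt7*, a slow calcium sensor, rose by 1.77, *Syt13* by 1.65 and *Syt14* by 0.89 on the log2 scale. *Syt9* fell from 8.99 and 9.75 FPKM to 4.62 and 3.49 (log2 fold change -1.05), and *Syt3* fell from 1.28 and 1.53 to 0.589 and 0.609 (-0.59). At day 0 the most abundant synaptotagmin had been *Syt9*, in all 4 samples.

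The tetraspan vesicle proteins split as well. *Syp*, the synaptophysin gene used as a marker of nerve terminals, rose from 0.0581 and 0.0982 FPKM to 3.47 and 2.71 (log2 fold change 1.92). *Syngr1* fell from 24.4 and 22.5 FPKM to 4.90 and 4.33 (log2 fold change -2.12, standard error 0.19, limma adjusted p = 7.2e-05), the largest fall of any tested member, and *Syngr2*, a form found mostly outside neurons, fell by 0.45 on the log2 scale. *Sv2a*, a vesicle glycoprotein that binds the antiepileptic levetiracetam, rose by 0.85. *Rab3a*, the main RAB3 of synapses, rose from 2.22 and 3.34 FPKM to 5.68 and 5.41 (0.81). *Syn1*, which ties vesicles to the cytoskeleton, had 4.50 and 4.04 FPKM at day 0 and 3.90 and 3.52 at day 6 and did not pass the test (limma adjusted p = 0.520). Of the exon bases of *Syp* 16.8%, and of those of *Stx18* 13.7%, are shared with a gene on the other strand, and without a stated strand protocol the reads of such a pair cannot be told apart.

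The SNAREs of general membrane traffic rose in part: 7 of the 12 other syntaxins, 2 of the 3 other VAMPs and 0 of the 3 other SNAP-25 relatives (limma, 0 at an unadjusted p under 0.05). *Stx2* of the plasma membrane rose from 2.30 and 1.21 FPKM to 7.20 and 7.97 (log2 fold change 1.67), followed by *Stx6* of the trans-Golgi network (1.57), *Stx17* of autophagosomes (0.97), and *Vamp3* (0.95). The ubiquitous *Snap23* had 25.7 and 21.1 FPKM at day 0 and 21.4 and 23.1 at day 6, with overlapping samples. *Snap91*, matched by its symbol only, encodes a clathrin adaptor and not a SNARE; it had 1.29 FPKM in both samples of day 0 and 2.12 and 0.939 at day 6.

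In *Pcgf5*-/- cells, 17 of the 49 members rose over the same days and 4 fell, beside 21.9% and 10.4% of all tested genes. Here too, 9 of the 17 passed the filter on low values through the samples of day 6 alone. All 17 were among the 26 that rose in wild type (65.4% of the 26), while 53.1% of all genes that rose in wild type also rose in *Pcgf5*-/- cells. The number of rises was 11 under quantile normalization or per-chromosome centring, 11 without *Pcgf5*-/- day 0 replicate 1, *Pcgf5*-/- day 0 replicate 2 or *Pcgf5*-/- day 6 replicate 2, and 10 without *Pcgf5*-/- day 6 replicate 1.

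*Snap25* and *Cplx2* rose in the knockout as well. *Snap25* went from 0 and 0.0969 FPKM to 5.82 and 4.84 (log2 fold change 2.59, standard error 0.22, limma adjusted p = 0.00023), against 2.80 in wild type. *Cplx2* rose from 0.368 and 1.504 FPKM to 10.6 and 11.7 (2.71 against 3.65 in wild type). *Syt13*, *Cplx1*, *Stxbp6*, *Sv2a* and *Stxbp4* followed, with log2 fold changes of 1.67, 1.38, 1.31, 1.30 and 1.26. *Syt13* rose by 1.65 in wild type, close to its rise in the knockout. *Sv2a* rose more on the log2 scale in *Pcgf5*-/- cells, from 0.304 and 0.0669 FPKM to 1.95 and 1.84; the difference from wild type did not pass the test (0.45, limma adjusted p = 0.367).

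The falls were those of *Syngr1* (from 37.2 and 28.4 FPKM to 9.58 and 12.5, log2 fold change -1.49), *Syngr2* (-0.77), *Syt9* (-0.77) and *Vamp1* (from 2.25 and 1.36 FPKM to 0.617 and 0.817, -0.69, limma adjusted p = 0.0493). The call for *Vamp1* was lost in 9 of 15 alternatives, with a limma adjusted p of up to 0.242. *Syt3* was the only 1 of the 4 members that fell in wild type and did not pass the test in *Pcgf5*-/- cells, with 1.10 and 1.12 FPKM at day 0 and 0.936 and 0.913 at day 6. The 9 members that rose past the threshold in wild type alone were *Syt11*, *Stx2*, *Vamp2*, *Stx17*, *Vamp3*, *Stx7*, *Stx18*, *Rab3a* and *Vamp4*. Passing in 1 genotype alone does not show that the change differed, which was tested separately and is given below for *Syt11*. Over the 26 members that rose in wild type, the median log2 rise was 1.57 in wild type and 0.75 in *Pcgf5*-/- cells, and 24 of the 26 had the smaller rise in *Pcgf5*-/- cells (92.3%). Among all 4522 genes that rose in wild type the medians were 1.07 and 0.64, and 87.9% had the smaller rise; choosing genes by their wild type rise favours that direction in itself.

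**Figure D2:**
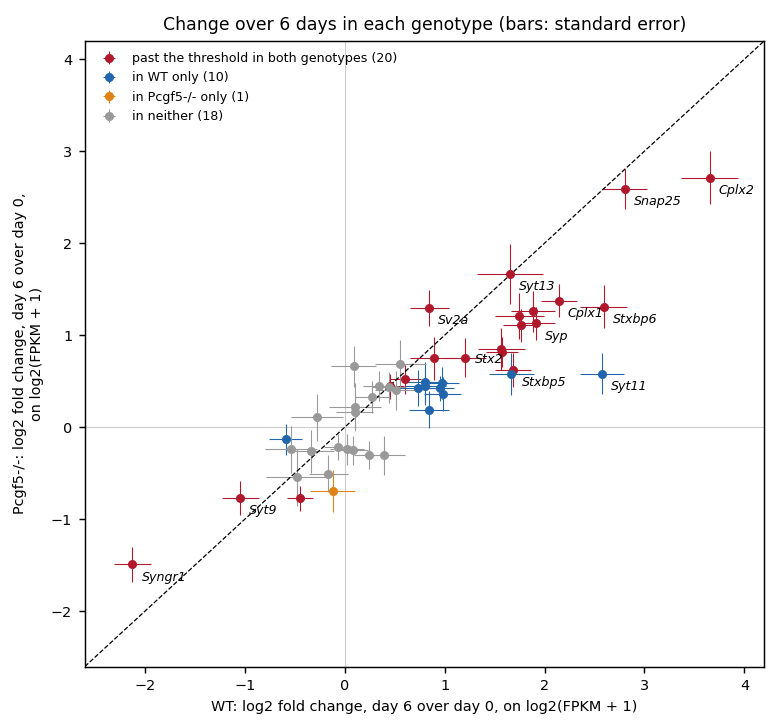
Log2 fold change from day 0 to day 6 in wild type (x axis) against that in *Pcgf5*-/- cells (y axis) for the 49 tested members, on log2(FPKM + 1), with bars for the standard error and colours for the genotypes in which the change passed the threshold. Most risers lie below the dashed line of equal change, *Snap25* and *Syt13* lie close to it, and *Syt11* lies far under it at 2.58 and 0.58.

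At day 6, the comparison that asks how the cells without PCGF5 differed after neural induction, 4 members were lower and 5 higher in *Pcgf5*-/- than in wild type cells. Lower were *Syt11*, *Stxbp6*, *Stxbp5* and *Cplx1*, and higher were *Syngr1*, *Syngr4*, *Rab3b*, *Snap47* and *Syngr2*. These are 8.16% and 10.2% of the 49 members, close to the 7.05% and 9.57% of all tested genes that were lower and higher. The median log2 difference was -0.11 over the members and 0.02 over all tested genes, and 30 of the 49 members had a negative difference. Samples of the genotypes did not overlap in 19 members that were lower and 13 that were higher in *Pcgf5*-/- cells, beside 28.8% and 33.4% of all tested genes. The calls lean on all 4 samples of the day. Without wild type day 6 replicate 1, *Stxbp6* and *Syngr1* passed, and without wild type day 6 replicate 2 only *Syngr2* did. Without *Pcgf5*-/- day 6 replicate 1 only *Syngr1* passed, and without *Pcgf5*-/- day 6 replicate 2 only *Stxbp6* and *Syt11* did. When the fit held the 4 libraries of day 6 alone, *Cplx1*, *Stxbp6* and *Syngr4* missed the threshold narrowly (limma adjusted p = 0.0511, 0.0533 and 0.0537). The direction of the 9 members was the same in all alternatives run, 16 for *Snap47*, *Stxbp6*, *Syngr1*, *Syngr2* and *Syt11* and 15 for the others, which a minimum mean FPKM of 5 left out.

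Cell type markers moved with the genotype at this day. The summed FPKM of 13 neuron markers was 458.6 to 638.2 in wild type and 236.2 to 262.4 in *Pcgf5*-/- cells, and 6 of the 13 were lower and 0 higher. The sum of 11 neural progenitor markers was 911.6 to 971.6 and 471.2 to 489.8, with 9 of the 11 lower. The sum of 12 naive pluripotency markers was 105.8 to 241.8 in wild type and 677.8 to 732 in *Pcgf5*-/- cells, with 11 of the 12 higher. No marker of these 3 lists was at 0 in all samples. Their part in the differences of the presynaptic genes was not tested, and in bulk RNA fewer cells of a type and less RNA per cell cannot be told apart.

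*Syt11* measured 23.9 and 22.5 FPKM in wild type and 8.46 and 9.76 in *Pcgf5*-/- cells at day 6, against 4.07 and 2.24 in wild type and 5.92 and 5.55 in *Pcgf5*-/- cells at day 0. The *Pcgf5*-/- samples lay above the wild type ones at day 0 and under them at day 6, but the difference at day 0 did not pass the test. The log2 difference at day 6 was -1.26 (standard error 0.22, limma adjusted p = 0.0111), and at day 0 it was 0.73 (limma adjusted p = 0.143). *Syt11* was also the only member of the 49 whose change over the days differed between the genotypes (difference of the log2 changes -1.99, standard error 0.32, limma adjusted p = 0.0289), beside 1.75% of all tested genes that differed in this direction and 1.34% in the other, in which 0 members passed. By unadjusted limma p under 0.05, 14 members had a more negative and 1 a more positive change in *Pcgf5*-/- cells, beside 14.6% and 8.63% of all tested genes. The median difference was -0.31 over the members and -0.10 over all tested genes. The call for *Syt11* was kept without wild type day 0 replicate 1 and lost without any other single sample or with no filter on low values, with differences from -2.31 to -1.67 over the alternatives.

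Both syntaxin-binding proteins with VAMP-like coils were lower in *Pcgf5*-/- cells. *Stxbp6* had 4.46 and 7.23 FPKM in wild type against 1.77 and 2.40 in *Pcgf5*-/- cells at day 6 (log2 difference -1.13, standard error 0.23, limma adjusted p = 0.0174). *Stxbp5* had 4.05 and 4.50 FPKM in wild type against 1.98 and 1.90 in *Pcgf5*-/- cells (-0.84, standard error 0.18, limma adjusted p = 0.0199). In both genes the lowest wild type sample lay above the highest *Pcgf5*-/- sample, and both were under 1 FPKM in all samples of day 0. *Cplx1*, the complexin of fast synchronous release, had 4.31 and 4.01 FPKM in wild type against 1.85 and 2.21 in *Pcgf5*-/- cells (-0.77, standard error 0.18, limma adjusted p = 0.0258). With a pseudocount of 0.1, *Stxbp5* and *Cplx1* no longer passed (limma adjusted p = 0.0544 and 0.171).

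**Figure D3:**
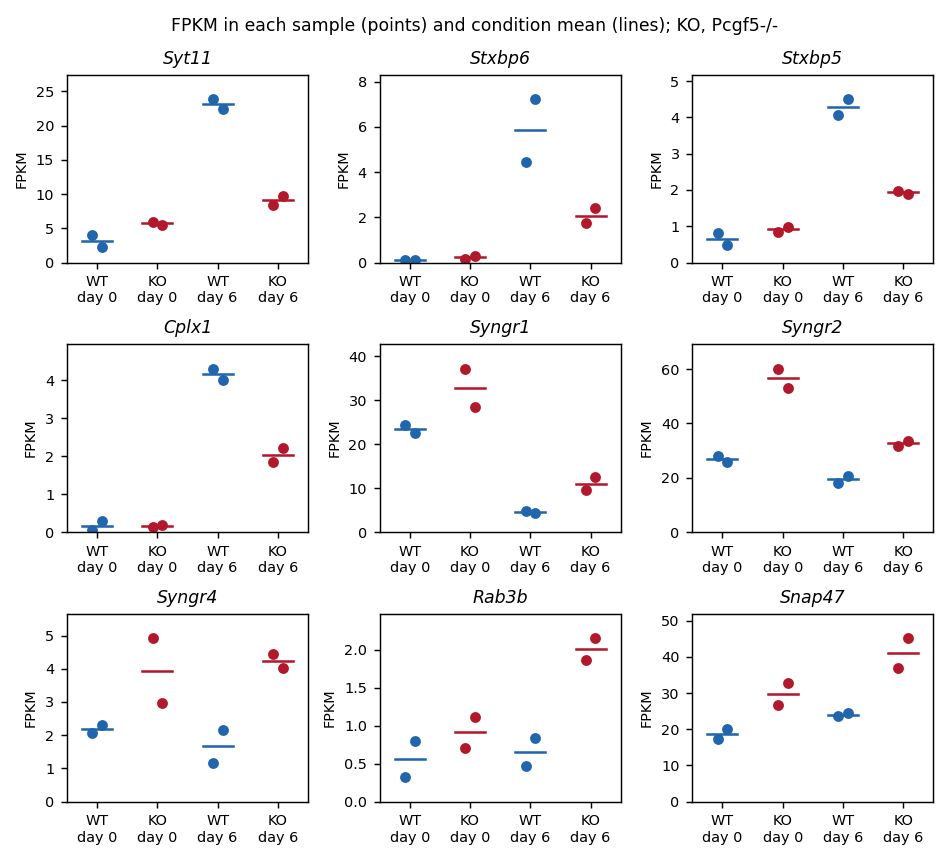
FPKM of the 9 members that differed between the genotypes at day 6, in each sample (points, wild type in blue and *Pcgf5*-/- in red) with the condition mean (line); each panel has its own axis starting at 0. In the 4 genes *Syt11*, *Stxbp6*, *Stxbp5* and *Cplx1* the wild type samples of day 6 stand highest, and in *Rab3b* the *Pcgf5*-/- samples of day 6 do.

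The promoters of these 4 genes are shown because PRC1 complexes are known to act mostly at promoters rich in CpG dinucleotides; no binding was measured in these data. Each sequence holds 250 bases before the RefSeq transcription start and the 50 bases from it on, is taken from RefSeq (GRCm38.p6), and was located in NCBIM37 (mm9), the build of the expression tables, by an exact match at the start of the locus given there. Capitals mark every CpG. *Syt11* lies at chr3:88576472-88576771, *Stxbp6* at chr12:46175421-46175720, *Stxbp5* at chr10:9620789-9621088 and *Cplx1* at chr5:108978997-108979296, all on the minus strand.
Syt11: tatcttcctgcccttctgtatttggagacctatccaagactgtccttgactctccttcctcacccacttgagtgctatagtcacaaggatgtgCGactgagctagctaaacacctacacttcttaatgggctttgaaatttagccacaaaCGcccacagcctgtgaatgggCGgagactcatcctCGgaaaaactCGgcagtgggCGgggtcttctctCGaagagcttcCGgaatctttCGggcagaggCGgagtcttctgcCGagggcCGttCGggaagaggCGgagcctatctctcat
Stxbp6: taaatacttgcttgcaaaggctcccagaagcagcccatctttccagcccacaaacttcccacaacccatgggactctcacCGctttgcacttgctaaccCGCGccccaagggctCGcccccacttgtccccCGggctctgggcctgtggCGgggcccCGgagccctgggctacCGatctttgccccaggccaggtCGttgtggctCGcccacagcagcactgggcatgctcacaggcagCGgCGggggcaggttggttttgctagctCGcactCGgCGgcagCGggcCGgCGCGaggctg
Stxbp5: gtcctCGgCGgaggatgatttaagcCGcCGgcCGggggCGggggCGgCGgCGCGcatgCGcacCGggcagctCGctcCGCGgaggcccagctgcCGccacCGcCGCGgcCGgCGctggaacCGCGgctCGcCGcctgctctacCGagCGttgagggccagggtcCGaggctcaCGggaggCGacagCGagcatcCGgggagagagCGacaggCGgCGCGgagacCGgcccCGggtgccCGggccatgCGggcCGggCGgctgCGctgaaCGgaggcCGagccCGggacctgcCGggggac
Cplx1: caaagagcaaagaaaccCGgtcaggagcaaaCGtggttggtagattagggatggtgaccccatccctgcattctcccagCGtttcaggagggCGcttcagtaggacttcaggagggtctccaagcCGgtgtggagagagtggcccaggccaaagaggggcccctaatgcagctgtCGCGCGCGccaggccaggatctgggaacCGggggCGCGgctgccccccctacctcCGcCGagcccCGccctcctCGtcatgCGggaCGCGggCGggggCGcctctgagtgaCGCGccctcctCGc

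The 4 promoters differed widely in CpG content. *Stxbp5* held 47 CpGs at 79.0% GC, *Cplx1* held 24 at 67.0%, *Stxbp6* held 19 at 66.3% and *Syt11* held 14 at 53.0%. The median was 20 CpGs over the 12724 RefSeq promoters of tested genes and 23 over the 29 tested members with a matched promoter at the start of their locus, so the 4 lie on both sides of it. The GC box letters GGGCGG, read on both strands, were present in *Syt11*, *Stxbp5* and *Cplx1* and absent from *Stxbp6*, and 62.7% of the promoters of tested genes hold them. The E-box letters CANNTG were present in all 4, as in 63.8% of those promoters.

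Among the 5 higher members were 3 of the 4 synaptogyrins. *Syngr1* had 4.90 and 4.33 FPKM in wild type against 9.58 and 12.5 in *Pcgf5*-/- cells at day 6 (log2 difference 1.09, standard error 0.19, limma adjusted p = 0.0103). It fell in both genotypes over the days, and the *Pcgf5*-/- samples of day 6 lay between the levels of day 0 and those of differentiated wild type cells. *Syngr4* had 1.18 and 2.15 FPKM in wild type against 4.43 and 4.02 in *Pcgf5*-/- cells (1.00, standard error 0.26, limma adjusted p = 0.0350), and *Syngr2* had 18.2 and 20.8 and then 31.7 and 33.7 FPKM (0.72, standard error 0.13, limma adjusted p = 0.0122). With no filter on low values, *Syngr4* no longer passed (limma adjusted p = 0.0820), and its difference ran from 0.73 to 1.35 over the alternatives. *Syngr3*, the fourth member of the family, had 1.34 and 1.57 FPKM in wild type against 1.25 and 1.33 in *Pcgf5*-/- cells and did not pass. At day 0 *Syngr4* had 2.05 and 2.30 FPKM in wild type against 4.92 and 2.97 in *Pcgf5*-/- cells (0.61, limma adjusted p = 0.274).

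The *Syngr1* promoter, on the plus strand at chr15:79921514-79921813 of the same build and with CpGs in capitals, is set beside those of the lower group as that of a gene that differed in the other direction. It holds 38 CpGs at 72.3% GC, more than 3 of the 4 lower genes and fewer than *Stxbp5*, and has both the GC box and the E-box letters.
Syngr1: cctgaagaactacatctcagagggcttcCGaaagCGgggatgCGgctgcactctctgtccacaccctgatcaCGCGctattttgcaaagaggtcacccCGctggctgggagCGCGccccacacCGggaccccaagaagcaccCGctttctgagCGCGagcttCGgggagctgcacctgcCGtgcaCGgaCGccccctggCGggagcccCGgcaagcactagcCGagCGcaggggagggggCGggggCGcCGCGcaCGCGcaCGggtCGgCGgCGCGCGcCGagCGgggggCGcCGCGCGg

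*Rab3b*, a RAB3 protein of endocrine and some nerve cells, had 0.463 and 0.834 FPKM in wild type against 1.86 and 2.15 in *Pcgf5*-/- cells (0.87, standard error 0.23, limma adjusted p = 0.0350). It passed the filter on low values through the *Pcgf5*-/- samples of day 6 alone, and its limma adjusted p was 0.0589 with no filter, 0.0669 with a pseudocount of 0.1 and 0.0544 under quantile normalization. *Snap47*, a SNAP-25 relative found in most tissues, had 23.6 and 24.5 FPKM in wild type against 36.8 and 45.1 in *Pcgf5*-/- cells (0.74, standard error 0.16, limma adjusted p = 0.0203). At day 0 *Snap47* had 17.4 and 20.2 FPKM in wild type against 26.8 and 32.9 in *Pcgf5*-/- cells (0.64, limma adjusted p = 0.0946). Of its exon bases 11.6% overlap *Jmjd4* on the other strand, and of those of *Rab3b* 9% overlap *8030443G20Rik* on the other strand. For *Syngr2*, 7.90% overlap *Afmid* on the same strand, and reads of such neighbours may not be told apart.

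The core of the synaptic fusion machine did not pass the test at day 6. *Snap25* had 7.79 and 5.06 FPKM in wild type against 5.82 and 4.84 in *Pcgf5*-/- cells, with overlapping samples and a log2 difference of -0.21 (95% interval -0.72 to 0.30). *Stx1a* had 5.36 and 6.79 FPKM in wild type against 5.59 and 6.64 in *Pcgf5*-/- cells (0.01, 95% interval -0.47 to 0.50), and *Vamp2* had 16.9 and 19.5 and then 17.7 and 18.9 FPKM (0.01, 95% interval -0.42 to 0.44). These intervals do not show the genes to be equal in the genotypes, and the sign of the *Stx1a* and *Vamp2* differences turned under some alternatives. *Vamp1* had a difference of -0.09 with overlapping samples. *Vamp2* and *Vamp1* lie on chromosomes 11 and 6, which stood higher as a whole, as given below. With each chromosome centred on its own median their differences were -0.39 and -0.49, and neither passed (limma adjusted p = 0.206 and 0.212).

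Among the other synaptic genes, *Syp* had 3.47 and 2.71 FPKM in wild type against 1.72 and 1.61 in *Pcgf5*-/- cells, a log2 difference of -0.61 just outside the threshold (limma adjusted p = 0.0541). *Cplx2* had a difference of -0.63, *Rab3a* of -0.45, *Syn1* of 0.41 and *Sv2a* of 0.08, none of which passed. *Stx2* (-0.77), *Vamp3* (-0.48), *Vamp4* (-0.66) and *Vamp8* of late endosomes (0.78) stood close to the threshold as well, with limma adjusted p from 0.0521 to 0.0538. *Vamp3* passed with the replicate number as a block, under quantile normalization and under per-chromosome centring. With that centring the difference of *Vamp8* was 0.38 (limma adjusted p = 0.323). By unadjusted limma p under 0.05, 12 members were lower and 8 higher, beside 14.3% and 18.3% of all tested genes.

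**Figure D4:**
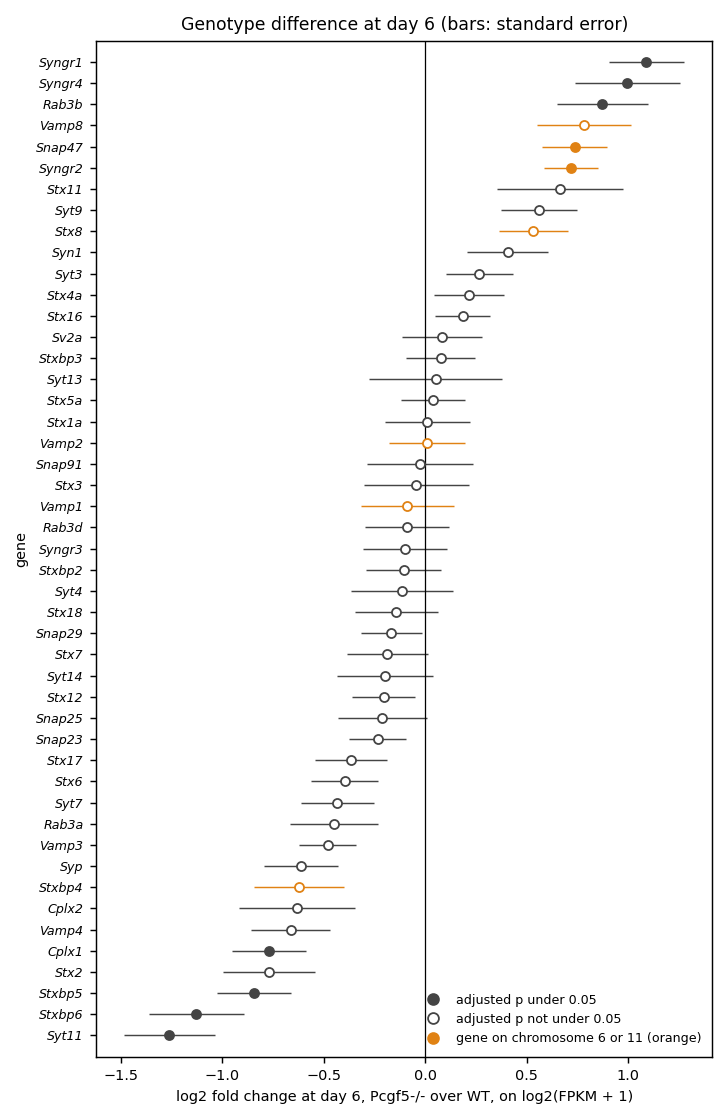
Log2 difference at day 6, *Pcgf5*-/- over wild type, for 47 of the 49 tested members, ordered by size, on log2(FPKM + 1), with bars for the standard error. Filled points passed the threshold (9 genes), open points did not, and orange points are genes on chromosomes 6 and 11.

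Some of the higher calls lie on chromosomes that stood higher as a whole. Over all their tested genes, the median log2 difference of chromosome 11 was 0.38 at day 6 and 0.48 at day 0, and that of chromosome 6 was 0.37 and 0.41. Medians of the remaining chromosomes ran from -0.06 to 0.03 at day 6 and from 0.04 to 0.12 at day 0. Of the tested members, 7 lie on these chromosomes (*Snap47*, *Stx8*, *Stxbp4*, *Syngr2* and *Vamp2* on 11, *Vamp1* and *Vamp8* on 6). Their median difference at day 6 was 0.53, against -0.15 over the other 42, and they held 2 of the 5 higher calls and 0 of the 4 lower ones. On chromosome 11, 25.1% of all tested genes were called higher at day 6 and 1.84% lower, and on chromosome 6, 25.5% and 2.18%. After each chromosome was centred on its own median, *Snap47* and *Syngr2* were no longer called (0.34 and 0.32, limma adjusted p = 0.186 and 0.150). *Stxbp4*, with 8.95 and 11.1 FPKM in wild type and 5.11 and 7.33 in *Pcgf5*-/- cells, was then called lower (-1.02 in place of -0.62, limma adjusted p = 0.0230), as was *Vamp3*. The other 7 members called at day 6 passed with and without the centring. What set these chromosomes apart was not tested.

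At day 0, before differentiation, 1 of the 49 members differed between the genotypes, beside 0.288% of all tested genes that were higher and 0.0454% that were lower. It was *Syngr2*, with 27.9 and 26.0 FPKM in wild type and 60.2 and 53.1 in *Pcgf5*-/- mESCs (log2 difference 1.04, standard error 0.13, limma adjusted p = 0.0472). Samples of the genotypes lay far apart, but the adjusted p stood near the threshold and the call was lost in 14 of the 16 alternatives, among them leaving out any single sample; with its chromosome centred the difference was 0.53. The median log2 difference was 0.19 over the members and 0.11 over all tested genes, and 38 of the 49 were positive. By unadjusted limma p under 0.05, 13 members were higher and 0 lower, beside 14.1% and 3.26% of all tested genes. Feeder cell markers differed between the day 0 samples: 10 fibroblast markers summed to 172.8 to 271.2 FPKM in wild type and to 171.2 and 579.5 FPKM in the 2 *Pcgf5*-/- samples, and their part in the values of day 0 was not tested.

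The 20 members under the filter include several named for the synapse. *Syt1* had 0.0147 and 0 FPKM in wild type against 0.0394 and 0.0549 in *Pcgf5*-/- cells at day 0, and 0.434 and 0.448 against 0.110 and 0.148 at day 6. When genes with low values were let in, *Syt1* was lower in *Pcgf5*-/- cells at day 6 (log2 difference -0.35, limma adjusted p = 0.0124), as were *Syn3* (0.284 and 0.379 against 0.114 and 0.123 FPKM, -0.25) and *Syt15* (-0.16), and the change of *Syt1* over the days also differed (-0.41, limma adjusted p = 0.0499). All 3 genes stayed under 1 FPKM in every sample. Exons of *Syn3* share 14.1% of their bases with *Timp3* on the other strand, and reads of such a pair may not be told apart. *Syn2* was listed at 0 in both wild type samples of day 0 and had 0.550 and 0.233 FPKM in wild type against 0.219 and 0.212 in *Pcgf5*-/- cells at day 6. *Syt8* and *Vamp7* were listed at 0 in all samples. The locus listed for *Vamp7* lies on X_random and not on the assembled X chromosome, so its values do not show that the gene was silent. *Syt17* and *Syt5*, with a highest condition mean of 0.996 and 0.992 FPKM, lay just outside the filter, and *Syt4* and *Syt3*, with 1.11 and 1.41, just inside.

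Of 57 tested presynaptic and SNARE genes outside the symbol rule, in 5 lists made by function, 3 were higher and 3 lower in *Pcgf5*-/- cells at day 6 (5.26% each, beside 9.57% and 7.05% of all tested genes). Of 15 tested genes of the active zone, the scaffold *Cask* was lower (6.22 and 6.75 FPKM in wild type, 4.10 and 3.11 in *Pcgf5*-/- cells, -0.71) and the scaffold *Rims1* higher (0.291 and 0.137 against 1.34 and 1.05 FPKM, 0.86). Of 12 priming and fusion genes 1 was lower, *Cadps*, a priming factor of dense-core vesicles, with 2.86 and 2.46 FPKM in wild type and 0.336 and 0.663 in *Pcgf5*-/- cells (-1.29, limma adjusted p = 0.00615). The GABA-synthesizing enzyme *Gad2* was the only 1 of 5 transmitter genes to differ (1.33 and 0.587 against 2.59 and 2.36 FPKM, 0.85). *Rims1* and *Gad2* passed the filter on low values through the *Pcgf5*-/- samples of day 6 alone, and *Cadps* through the wild type samples of day 6 alone.

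Of 13 tested genes of vesicle recycling and other vesicle proteins, *Sh3gl2*, or endophilin, was higher and the vesicle protein *Svop* lower in *Pcgf5*-/- cells. Over all tested genes, 9.57% were higher and 7.05% lower. *Sh3gl2* had 4.84 and 2.46 FPKM in wild type against 10.8 and 10.3 in *Pcgf5*-/- cells (1.36), and like *Syngr1* it had been more abundant at day 0, with 20.6 to 26.3 FPKM. *Svop* had 7.28 and 6.33 and then 2.02 and 3.66 FPKM (-1.05). Of the 12 SNAREs of the Golgi and endoplasmic reticulum named outside the symbol rule, 0 passed at day 6 by limma, beside the same 9.57% and 7.05%. An unadjusted limma p under 0.05 was reached by 2 of them, beside 18.3% of all tested genes higher and 14.3% lower.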

How the data were processed

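Polyadenylated RNA of 8 samples (2 per genotype and day) had been sequenced. The authors trimmed read pairs, discarded duplicate and short reads, aligned to mm9 with TopHat2 2.0.4 and computed gene FPKM with Cufflinks 2.1.1, per the submitters' processing notes and the study's methods. The deposited FPKM values were used as they stand. Read counts are not given, so no depth stands beside single values. Removing identical reads lowers the most abundant transcripts.

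Values were analysed as log2(FPKM + 1) for 13214 genes (condition mean above 1 FPKM at least once), with limma 3.58.1 (R 4.3.3): a mean per condition, a variance trend, no replicate block, Benjamini-Hochberg adjustment, threshold 0.05. Simulated data with known changes were used to test the fit. Errors are standard errors of log2 differences. Tables were joined with Python 3.11.15 and pandas 2.3.3.

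Members and lists were chosen with earlier results of these data known. Every-sample values were planned for members past the threshold between genotypes, the 8 largest rises and falls per genotype and fixed neuronal genes. Some of these, such as *Syt7* and *Syt13*, are given by log2 changes alone, and others not in every condition. Of other lists, at most 5 genes per direction are given. Further members were picked after their values were seen. RefSeq promoters were found for 51 members. Alternatives changed the pseudocount, filter, scaling, block, samples and variance model. A few members are not reported here.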

Additional observations from a re-analysis of the deposited data

Results flagged for a closer look

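The change of *Syt11* from day 0 to day 6 differed between the genotypes by -1.99 on the log2(FPKM + 1) scale, a rise of 2.58 in wild type and of 0.58 in *Pcgf5*-/- cells, by the interaction term of the limma fit (standard error 0.32, adjusted p = 0.0289). It was picked out because the effect of the 6 days differed between the genotypes in a test of the difference itself. With 2 samples in each condition, no sample could be examined as an outlier within its group.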

How the results depend on the processing

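Counts of members past the threshold were recomputed under 16 alternatives. At day 6 between the genotypes, 5 higher and 4 lower became 4 and 2 with a pseudocount of 0.1, 3 and 7 with no filter on low values, 3 and 2 with a minimum mean FPKM of 5, 3 and 6 with per-chromosome centring, 6 and 7 with no variance trend, and 0 to 6 and 0 to 5 without 1 sample at a time. At day 0 the 1 higher member became 0 with no filter, quantile normalization, per-chromosome centring, only the compared groups in the fit, no variance trend, and without any single sample (0 to 0). In *Pcgf5*-/- cells over the days, the 17 rises became 10 with the minimum of 5 and 11 with quantile normalization or per-chromosome centring, and 10 to 19 rose and 2 to 4 fell without 1 sample. In wild type 21 to 26 rose and 3 to 4 fell without 1 sample. The 1 member whose day effect differed became 2 with no variance trend and 0 to 1 without 1 sample.

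With the replicate number as a term (replicate block), 5 members were higher and 5 lower at day 6, 0 differed at day 0, 27 rose in wild type and 20 in *Pcgf5*-/- cells, and 1 day effect differed. Differences between same-numbered samples correlated at 0.39 across the genotypes at day 6, at 0.10 at day 0 and at -0.08 to -0.02 across days; the labels do not say what a number shares.

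Each named result was counted once under each alternative. By this count, other settings lost 22 calls, gained 2, turned the sign of 3 uncalled differences and left 325 outcomes the same. More calls were lost by leaving out a sample. No direction changed among the called ones. Signs turned where the differences at day 6 were near 0: *Stx1a* was -0.0043 with per-chromosome centring and -0.14 to 0.16 without 1 sample, *Vamp2* was -0.020 with quantile normalization, -0.39 with per-chromosome centring and -0.090 to 0.11 without 1 sample, and *Snap25* was -0.48 to 0.057 without 1 sample. Leaving out a sample leaves 1 in its condition, which is then assumed to vary like the others. The cause was not tested. FPKM hides the counts, which limits the members under the filter most, and with 2 samples per condition a missed threshold does not show that a gene did not differ.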
